A study of Mus musculus with 47 samples.

Results

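Aminoacyl-tRNA synthetases join each amino acid to its transfer RNA, the step that turns the genetic code into protein. Most amino acids have a cytosolic enzyme and a separate mitochondrial one, both encoded in the nucleus, and the symbols of the mitochondrial enzymes end in 2. In the cytosol several synthetases are held together in a multi-synthetase complex by scaffold proteins without enzyme activity, and the transcription factor ATF4 raises many cytosolic synthetase genes in the integrated stress response, when amino acids are short or proteins misfold. Variants in many of these genes are known causes of neuropathy and brain disease. The members were the rows of a hippocampal count table whose symbol is a synthetase symbol or Eprs, Farsa, Farsb, Aimp1, Aimp2 or Eef1e1, with at least 470 reads over all libraries. This gave 40 of 35486 genes, namely 20 cytosolic enzymes, 17 mitochondrial enzymes and 3 scaffold proteins. All 40 genes that matched by symbol met the read minimum (lowest Wars2, with 3624 reads) and all 40 passed the filter on low counts that 17778 genes passed.

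RNA was taken from the hippocampus of 47 male C57BL/6J mice, 1 library per mouse, in 4 groups that cross age with treatment. Young Veh (n = 13) and Old Veh (n = 12) mice received vehicle, and Young PF4 (n = 12) and Old PF4 (n = 10) mice received mouse platelet factor 4, a chemokine of platelets, by daily injection into the peritoneum. The labelled ages ran from 3.75 to 5.26 months in young and from 17.4 to 20.23 months in old mice, and all mice were wild type and of 1 sex. The library numbers in the labels, whose meaning is not stated, run in separate ranges for Old Veh, Old PF4 and the young mice, while Young Veh and Young PF4 are mixed. What goes with the number cannot be told apart from age, nor from PF4 in old mice.

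Libraries were made from whole tissue without strand information, so reads from genes that overlap on opposite strands cannot be told apart, nor can fewer cells of a type from less RNA per cell. Total counts ran from 2242879 to 21112908 per library (median 10374007). Group medians were 12203163 in Young Veh, 10515336 in Young PF4, 7730491.5 in Old Veh and 9565270.5 in Old PF4. Of the 8 libraries of lowest total, 4 were Old Veh, 2 Young PF4, 1 Young Veh and 1 Old PF4. The 8 neuron markers checked, among them Snap25 and Camk2a, summed to between 7340 and 9700 CPM, which are counts scaled to a common library total, in every library. The 10 markers of choroid plexus, an epithelium beside the hippocampus, had median sums of 1940 CPM in Young Veh and 2380 CPM in Young PF4 against 47.1 CPM in Old Veh and 65.9 CPM in Old PF4, and in each group they reached at least 3280 CPM in some library.

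Levels were compared between genes as CPM per kilobase of the longest annotated transcript, as medians over the 47 libraries. Cytosolic enzymes had levels from 10.2 (Tars, for threonine) to 71.7 CPM per kilobase (Nars, for asparagine), with a median of 26.1. Mitochondrial enzymes other than Lars2 ran from 1.72 (Wars2, for tryptophan) to 26.9 (Fars2, for phenylalanine), with a median of 6.69. The scaffold proteins Aimp2, Eef1e1 and Aimp1 had 18.6, 14.1 and 8.44 CPM per kilobase. Glycyl-tRNA synthetase Gars, 1 gene that serves both cytosol and mitochondria, followed Nars with 69.8 CPM per kilobase, and their ranges over libraries overlapped (62.7 to 78.2 for Gars, 62.1 to 114 for Nars). Kars, the lysine enzyme that also serves both, had 47.4. None of the 20 cytosolic enzymes lay below the mitochondrial median, and 2 of the 17 mitochondrial enzymes, Lars2 and Fars2, lay above the cytosolic median. Per kilobase of all exons of a gene joined, the medians were 17.1 for cytosolic and 4.93 for mitochondrial enzymes and the cytosolic gene was again higher in 16 of 18 pairings, but some ranks changed. Fars2 (15.7) then lay below the cytosolic median, Gars (53.3) above Nars (45.2), Eprs (6.50) below Tars (7.08), and Lars2 at 1810.

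**Figure D1:**
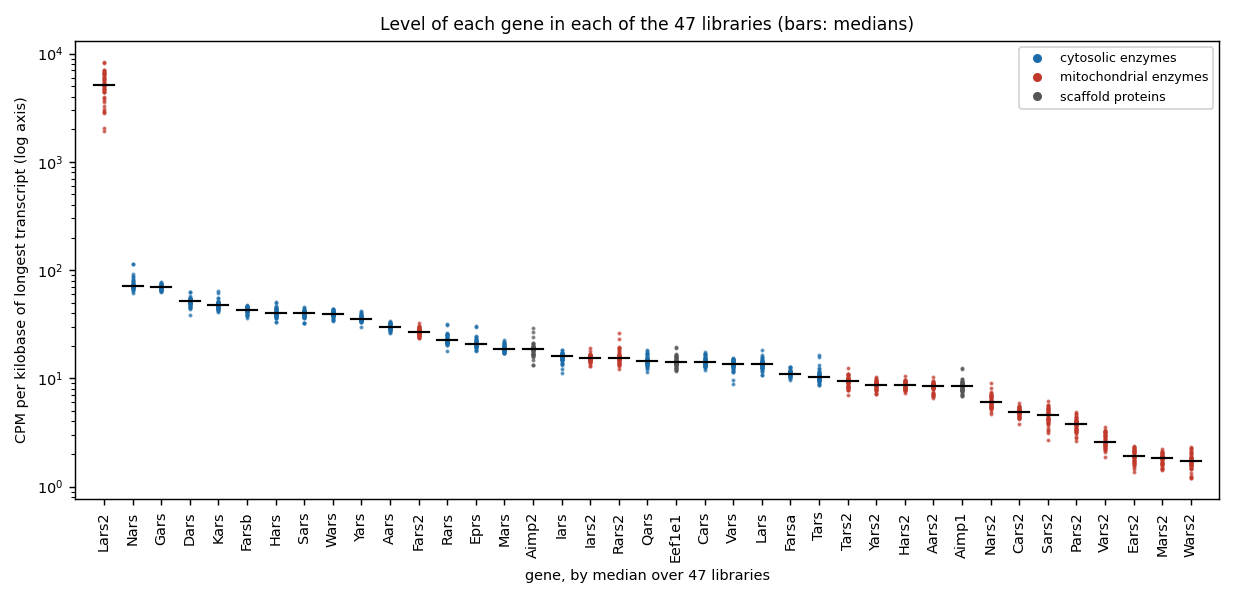
Level of 39 of the genes, as CPM per kilobase of the longest transcript on a log axis, with 1 point per library (47 libraries) and a bar at the median. Cytosolic enzymes (blue) fill most of the upper ranks and mitochondrial enzymes (red) the lower ones, apart from Lars2 at 5160 CPM per kilobase and Fars2 at 26.9.

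Within amino acids, the cytosolic gene was the higher of the pair in 16 of 18 pairings. Among these 16 the ratio was widest for tryptophan, where Wars stood 23 times above Wars2, and was near 1 for isoleucine (Iars to Iars2, 1.03) and threonine (Tars to Tars2, 1.08). The 2 pairings in which the mitochondrial gene was higher were Lars with Lars2 (ratio 0.0026) and Farsa, the catalytic subunit for phenylalanine, with Fars2 (0.413). Some members share exon bases with neighbours, and whether shared reads were counted on the member was not tested. Fars2 shares 501 exon bases with Nrn1, which has 82624 reads on the other strand against 43556 for Fars2. Iars2 shares 2034 exon bases with Rab3gap2 (40014 reads against 40341). Aimp2 overlaps Eif2ak1, a kinase of the integrated stress response, over 487 bases, and Hars overlaps Hars2 over 195 bases.

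Lars2, the mitochondrial leucine enzyme, stood apart from all other members. It lies on the plus strand of chromosome 9 of GRCm38 from 123366927 to 123462666 and held 9283253 reads, 1.93% of all reads counted, against 99307 for Nars, the member with the next highest count. Young Veh mice had 7560 to 27300 CPM (median 20100), Young PF4 mice 11000 to 25800 (median 19000), Old Veh mice 11600 to 32900 (median 20300) and Old PF4 mice 7980 to 32100 (median 21500), so the 4 groups overlapped almost wholly. After removal of group means its log2 CPM had an SD of 0.485, against a median of 0.146 over the members and 0.214 over all genes tested. The longest coding transcript of Lars2 has 2706 coding bases, and its bases 3278 to 3349, past the coding part, match the non-coding RNA Gm15564 over 72 bases with an identity of 98.6%. Gm15564 held 2239141 reads. Such a match was not particular to Lars2. In all, 18 members share at least 50 bases, with an identity of at least 95%, with a gene elsewhere in the genome. Yars, for example, matches H2-Q4 over 221 bases, and Cars2 matches Rpn2 over 171 bases (7389 reads for Cars2 against 84094 for Rpn2). Whether reads of 1 gene were counted on the other was not tested for any of them.

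Across the 47 libraries Lars2 rose and fell with 3 non-coding RNAs. After removal of group means, Pearson's r was 0.995 with Gm15564 (Spearman's rho 0.987), 0.964 with Gm42418 (rho 0.935) and 0.932 with Gm26917 (rho 0.869). Each had a two-sided permutation p of 1e-05, the smallest that 100000 resamples can give, for both measures (1.33e-05 after Benjamini-Hochberg adjustment over 4 relations). Without the 2 libraries farthest from the median of Lars2, r was 0.992, 0.945 and 0.896. With AA474408, which shares 50 bases with Lars2 but held 1888 reads, r was 0.309 (permutation p = 0.0337) and rho was 0.276 (p = 0.0586). Gm42418 is known to overlap a ribosomal RNA repeat. Its ranges overlapped between the 4 groups, from 426 to 3570 CPM in Young Veh, 734 to 3600 in Young PF4, 622 to 3630 in Old Veh and 391 to 3810 in Old PF4.

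Many genes of the hippocampus followed Gm42418, members and others alike. At a permutation p below 0.05 after Benjamini-Hochberg adjustment over all genes, 45.8% of 17777 genes correlated with it, 23.7% negatively and 22.1% positively, and 30.5% also passed by Spearman's rho. Of the 40 members 27 passed, 20 negatively and 7 positively, and 19 of them also passed by rho. All 3 scaffold proteins and 13 of 20 cytosolic enzymes were among the negative ones. The 2 strongest negative correlations were those of Eprs, the joint enzyme for glutamate and proline and part of the complex (r = -0.867, rho = -0.726), and Nars (r = -0.854, rho = -0.561), followed by Tars (r = -0.830, rho = -0.662). Each had a Pearson permutation p of 1e-05 (adjusted 5.93e-05), and r was -0.759, -0.733 and -0.693 without the 2 libraries farthest from each gene's median. Rars2, the mitochondrial arginine enzyme, stood at r = -0.804. On the positive side, besides Lars2, were Iars (r = 0.655, rho = 0.482), Vars (r = 0.650, rho = 0.396) and Wars (r = 0.602, rho = 0.351), the cytosolic enzymes for isoleucine, valine and tryptophan. Wars did not pass by rho (adjusted permutation p = 0.0505), and r was 0.416, 0.347 and 0.436 without the 2 libraries farthest from each gene's median.

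**Figure D2:**
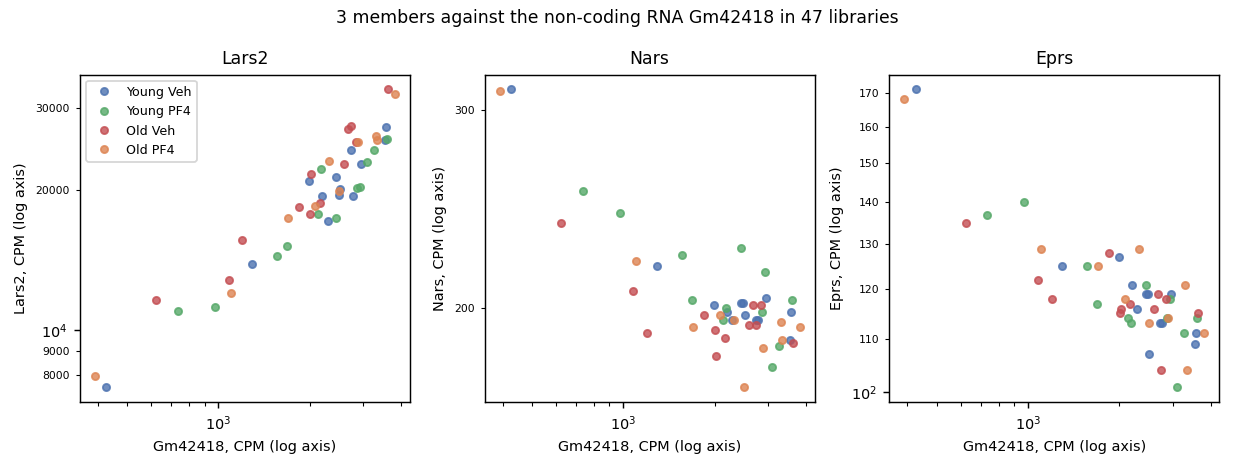
CPM of Lars2, Nars and Eprs against CPM of the non-coding RNA Gm42418 in 47 libraries, on log axes, with points coloured by group. Lars2 rises with Gm42418 while Nars and Eprs fall, and 1 Old PF4 and 1 Young Veh library, at 391 and 426 CPM of Gm42418, hold the highest Nars (312 and 313 CPM) and Eprs (168 and 171 CPM).

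A pair of libraries carried the extremes of this relation. Old PF4 replicate 8 and Young Veh replicate 4 had the lowest Gm42418 (391 and 426 CPM) and the lowest length index (-0.202 and -0.302), which is the mean relative level of genes with long transcripts minus that of genes with short ones. Their total counts, 12380047 and 19508854, were not low. Nars reached 312 and 313 CPM in these libraries, against group medians of 193 and 198 CPM. Without both libraries, r with Gm42418 was 0.944 for Lars2, -0.749 for Eprs, -0.721 for Nars and -0.680 for Tars over 45 libraries, but -0.054 for Aimp1, which had been -0.480. It fell to 0.396 for Iars, 0.316 for Vars and 0.376 for Wars. The part of RNA quality or library preparation in these values was not tested.

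The cytosolic and mitochondrial enzyme of 1 amino acid were then compared across mice, to see whether the pair of genes varied together beyond the groups. Over 19 pairs, which include the subunits Farsa and Farsb, 5 correlations passed a Benjamini-Hochberg adjusted permutation p of 0.05. Of these, Rars and Rars2 had r = 0.682 (rho = 0.415), Tars and Tars2 r = 0.610 (rho = 0.527) and Nars and Nars2 r = 0.609 (rho = 0.294). Lars and Lars2 ran in opposite directions (r = -0.617, rho = -0.481). The adjusted permutation p was 9.5e-05 for each of these 4 pairs, and by rho Nars did not pass (adjusted permutation p = 0.140). Without the 2 libraries farthest from the median of the cytosolic gene, r was 0.432 for Rars, 0.445 for Tars, 0.370 for Nars and -0.577 for Lars. The sign was the same within each of the 4 groups for these 4 pairs, for example 0.783, 0.346, 0.493 and 0.805 for Rars in Young Veh, Young PF4, Old Veh and Old PF4.

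These pair correlations did not hold once the Gm42418 level of each library was removed as well, which was tried only after the data had been looked at. None of the 19 pairs then passed, and r fell to 0.186 for Rars, 0.237 for Tars and 0.133 for Nars. For Lars it was 0.134 (adjusted permutation p = 0.731). Lars2 follows Gm42418 at r = 0.964, so this step removed most of its variation and cannot show whether Lars and Lars2 vary together. The Farsa and Farsb subunits, which form 1 enzyme, had r = 0.3 before (adjusted permutation p = 0.109) and 0.184 after. Leaving out Old PF4 replicate 8 and Young Veh replicate 4 left 3 pairs past the threshold, Lars (r = -0.485), Tars (0.433) and Rars (0.408).

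**Figure D3:**
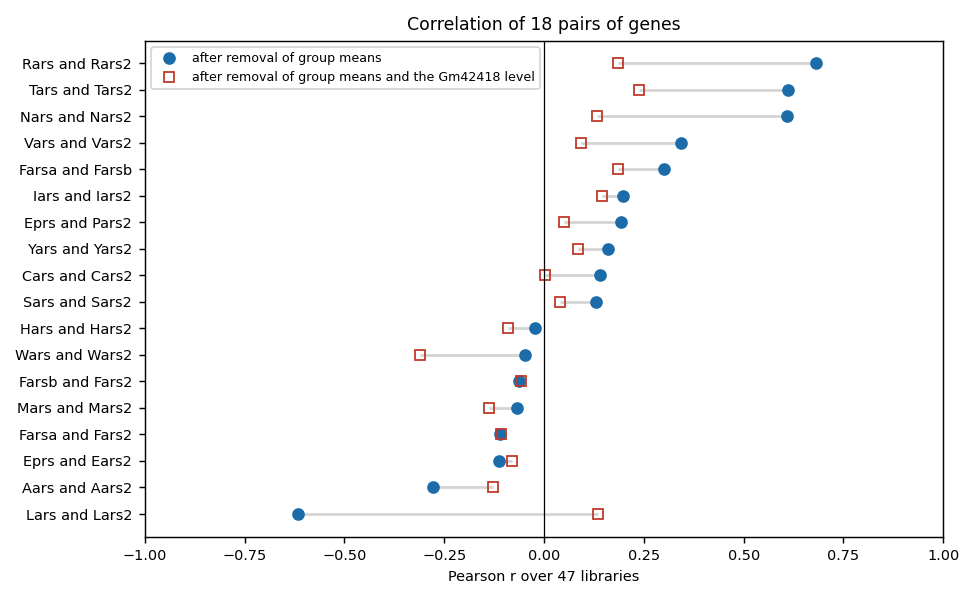
Pearson r over 47 libraries for 18 pairs of genes, after removal of group means (filled circles) and after removal of group means and the Gm42418 level (open squares). The pairs of Rars, Tars and Nars with their mitochondrial partners start between 0.609 and 0.682 and lie at or below 0.237 after the second step. Lars with Lars2 moves from -0.617 to 0.134, where most variation of Lars2, which follows Gm42418 at r = 0.964, has been removed.

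As a description, the median r between members of the multi-synthetase complex was 0.421 over 55 pairs of genes, against 0.165 over 66 pairs of cytosolic enzymes outside it and 0.040 over 136 pairs of mitochondrial enzymes. After removal of Gm42418 these medians were 0.126, 0.125 and 0.054. All pairs share the same 47 libraries and their depth.

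Age in vehicle-treated mice was compared first, as Old Veh against Young Veh. Of the 40 members, the edgeR quasi-likelihood test called 0 (threshold 0.05 after Benjamini-Hochberg adjustment), where 2.77% of all genes tested were called, and DESeq2 also called 0 members. At an unadjusted p below 0.05 there were 8 members (8 by DESeq2), 7 of them lower and 1 higher in old mice, against 15.2% of all genes tested. The cytosolic enzymes had a median log2 fold change of -0.041, with 18 of 20 below 0. The mitochondrial enzymes had one of 0.007, with 8 of 17 below 0. All genes tested had one of -0.013, with 9731 of 17778 below 0. The 3 scaffold proteins had values of -0.18, -0.11 and -0.05.

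Aars, the alanine enzyme, had the smallest p. Young Veh mice had 170 to 185 CPM (median 175), Young PF4 mice 160 to 196 (median 173), Old Veh mice 152 to 179 (median 163) and Old PF4 mice 154 to 191 (median 173). Most Old Veh mice lay below the Young Veh range, though the ranges overlapped. The log2 fold change in Old Veh was -0.09 (SE 0.033, edgeR adjusted p = 0.130). Aars lies on the plus strand of chromosome 8 from 111033144 to 111057664 and shares 1326 exon bases with Exosc6 on the same strand.

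Aimp1, a scaffold of the complex on the minus strand of chromosome 3 from 132660499 to 132684370, had 30.1 to 49.1 CPM in Young Veh mice with a median of 35.1. The values were 30.7 to 39 (median 33.7) for Young PF4, 27.1 to 36.1 (median 30.4) for Old Veh and 30.2 to 48.4 (median 34) for Old PF4. Old Veh had the lowest median of the 4 groups and overlapped each of the others. Its log2 fold change was -0.18 (SE 0.068, edgeR adjusted p = 0.146), and -0.13 without Old PF4 replicate 8 and Young Veh replicate 4. Aimp1 overlaps Tbck on the other strand over 163 exon bases.

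Wars2 was the member whose estimate lay above 0 with the smallest p. It lies on the plus strand of chromosome 3 from 99141068 to 99239186. Young Veh mice had 5.30 to 9.82 CPM (median 7.41), Young PF4 mice 6.42 to 10.2 (median 7.32), Old Veh mice 6.81 to 10.1 (median 8.14) and Old PF4 mice 5.92 to 9.75 (median 7.33), so all groups overlapped. Its log2 fold change of 0.23 (SE 0.089, edgeR adjusted p = 0.169) rested on 12 to 147 reads per library. Yars (tyrosine) and Mars (methionine) had values of -0.09 (SE 0.036) and -0.10 (SE 0.040), with edgeR adjusted p of 0.186 and 0.200. Sars, Wars and Gars, also at an unadjusted p below 0.05, lay at -0.09, -0.08 and -0.07.

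The 95% interval of the fold change lay within 1.2-fold in either direction for 35 of 40 members, including all 20 cytosolic enzymes, against 49.9% of all genes tested. The exceptions were Lars2 (log2 interval -0.27 to 0.42), Wars2 (0.05 to 0.41), Aimp1 (-0.32 to -0.05), Aimp2 (-0.27 to 0.06) and Sars2 (-0.12 to 0.27). The residual SD of log2 CPM was 0.126 at the median of cytosolic enzymes, 0.177 at that of mitochondrial enzymes and 0.214 over all genes tested, and it was lowest for Gars (0.066) and Aars (0.077).

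**Figure D4:**
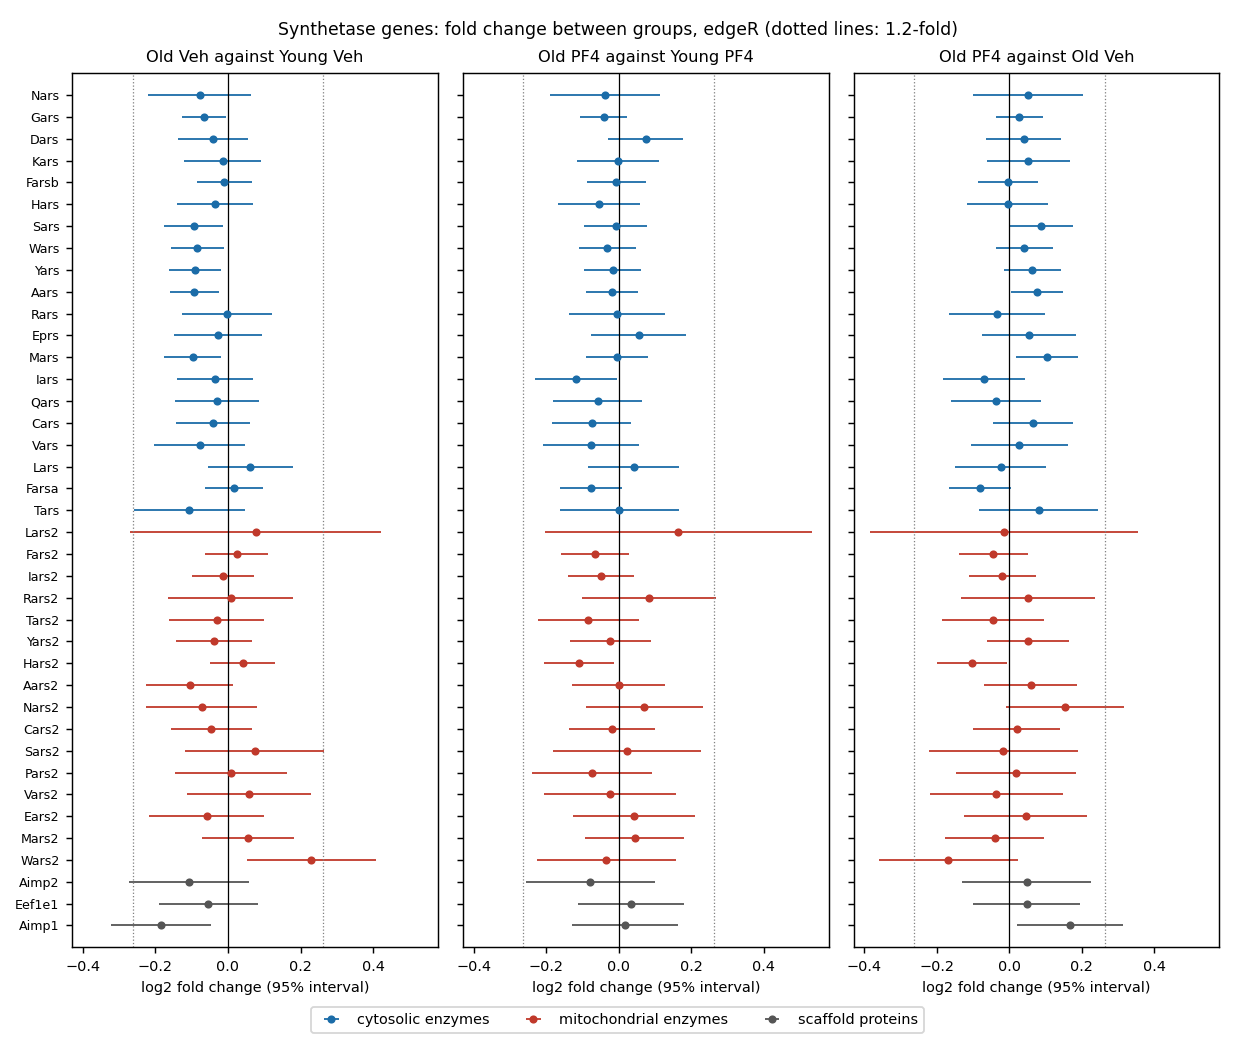
Log2 fold change of 39 of the genes with its 95% interval from edgeR in 3 comparisons, with dotted lines at 1.2-fold and genes ordered by level within each list. In Old Veh against Young Veh 18 of 20 cytosolic enzymes (blue) lie below 0, beside 9731 of all 17778 genes tested. In Old PF4 against Old Veh, which shares the Old Veh mice, 13 of 20 lie above 0, beside 9596 of all 17778 genes. No gene shown was called in any panel, and Lars2 has the widest interval in each.

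The same age comparison in PF4-treated mice, Old PF4 against Young PF4, shares no mouse with the first. It called 0 of 40 members with edgeR and 0 with DESeq2, where edgeR called 0.332% of all genes tested. At an unadjusted p below 0.05 there were 2 members by edgeR and 1 by DESeq2, against 8.27% of all genes tested. Cytosolic enzymes had a median log2 fold change of -0.018 (16 of 20 below 0) and mitochondrial enzymes one of -0.018 (9 of 17 below 0). All genes tested had one of 0.004 (8593 of 17778 below 0). Hars2, for mitochondrial histidine, ran from 24.6 to 30.9 CPM in Old PF4 (median 27.1) and from 26.3 to 34.8 in Young PF4 (median 29.5), with a log2 fold change of -0.11 (SE 0.048, edgeR adjusted p = 0.512). Iars ran from 54.0 to 72.9 CPM in Old PF4 (median 66.2) and from 59.5 to 80.3 in Young PF4 (median 72.1), with a value of -0.12 (SE 0.056, edgeR adjusted p = 0.574). The groups overlapped for both. Aars, Aimp1 and Wars2 had values of -0.02, 0.02 and -0.03 here, against -0.09, -0.18 and 0.23 in vehicle-treated mice. Farsa, Dars and Fars2, the others among the 5 smallest p, lay at -0.08, 0.07 and -0.06, and Dars at 0.04 without Old PF4 replicate 8. The interval lay within 1.2-fold for 38 of 40 members, all but Lars2 and Rars2, against 50.5% of all genes tested.

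Averaged over both treatments, old against young gave 0 called members with edgeR, where 4.71% of all genes tested were called, and 0 with DESeq2. By edgeR 4 members had an unadjusted p below 0.05, all lower in old mice (Gars, Aars, Wars and Yars, each between -0.06 and -0.05), and 3 did by DESeq2, against 19% of all genes tested. All 12 cytosolic enzymes outside the complex had estimates below 0 (median -0.054). So had 8 of the 11 members of the complex (median -0.010), which include the 3 scaffold proteins. Of all 17778 genes tested, 9242 lay below 0 (median -0.004). The genes share the same libraries, so their signs are not independent. Iars, at -0.08, was called only with the length index as a covariate (-0.09, edgeR adjusted p = 0.0408), where 7.63% of all genes tested were. With the choroid plexus marker level as a covariate, edgeR again called 0 members, and Yars had the smallest adjusted p of the named genes there (0.0729, log2 fold change -0.09).

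**Figure D5:**
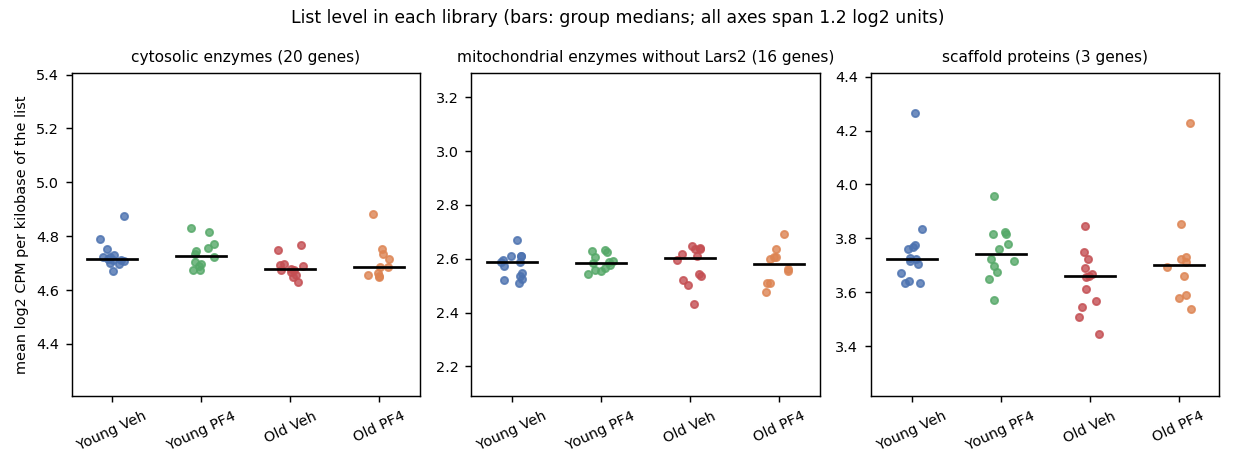
Mean log2 CPM per kilobase of the cytosolic enzymes, the mitochondrial enzymes without Lars2 and the scaffold proteins in each of 47 libraries by group, with bars at group medians and axes of equal span. The groups overlap in every panel, and the highest cytosolic and scaffold values are those of the same Young Veh and Old PF4 libraries (4.873 and 4.884 for cytosolic enzymes, 4.266 and 4.227 for scaffold proteins).

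As list means, cytosolic enzymes exceeded mitochondrial ones by a median of 1.595 on the scale of log2 CPM per kilobase in Young Veh (1.523 to 1.718), 1.561 in Young PF4 (1.463 to 1.686), 1.547 in Old Veh (1.405 to 1.620) and 1.542 in Old PF4 (1.419 to 1.704). The 4 groups overlapped over most of their range, and their medians differed by less than the SD within any group except Young Veh (0.049). Without Lars2 the medians were 2.152, 2.133, 2.127 and 2.140 in the same order. The cytosolic list itself had a median of 4.715 in Young Veh, 4.727 in Young PF4, 4.678 in Old Veh and 4.685 in Old PF4, and the mitochondrial list without Lars2 one of 2.587, 2.586, 2.604 and 2.581.

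The effect of PF4 in old mice was read from Old PF4 against Old Veh, which shares the Old Veh mice with the first age comparison and whose groups have separate library numbers. With edgeR 0 of 40 members were called, where 0.0337% of all genes tested were, and DESeq2 called 0 members. At an unadjusted p below 0.05 there were 5 members by edgeR and 4 by DESeq2, against 6.2% of all genes tested. The cytosolic enzymes had a median log2 fold change of 0.041 (13 of 20 above 0) and the mitochondrial enzymes one of -0.015 (8 of 17 above 0). All genes tested had one of 0.009 (9596 of 17778 above 0).

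Mars had the smallest p. It ran from 52.1 to 59.8 CPM in Old Veh (median 55.2) and from 52.7 to 69.4 in Old PF4 (median 57.7), with a log2 fold change of 0.10 (SE 0.0425, edgeR adjusted p = 0.689). Mars overlaps Ddit3, the stress gene that encodes CHOP, over 68 exon bases on the other strand. Aimp1 lay at 0.17 (SE 0.073), Aars at 0.08 (SE 0.036), Sars at 0.09 (SE 0.0435) and Hars2 at -0.10 (SE 0.048), with edgeR adjusted p between 0.743 and 0.798. Without Old PF4 replicate 8, the highest Aimp1 library of its group (48.4 CPM, the next 37.1), Aimp1 lay at 0.10 and 1 member in place of 5 had an unadjusted p below 0.05. With the length index as a covariate, 0 members had an unadjusted p below 0.05 by edgeR. Mars, Aimp1, Aars, Sars and Hars2 then lay at 0.08, 0.10, 0.07, 0.06 and -0.09. In the main fit the interval lay within 1.2-fold for 36 of 40 members, all but Lars2, Wars2, Aimp1 and Nars2, against 50.4% of all genes tested.

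In young mice, Young PF4 against Young Veh, edgeR called 0 members, 0% of all genes tested, and DESeq2 called 0 members. Of the members, 0 had an unadjusted p below 0.05 by either tool, against 1.2% of all genes tested by edgeR. Cars, the cysteine enzyme, had the smallest p, with 41.8 to 54.3 CPM in Young PF4 (median 48.5), 40.3 to 53.1 in Young Veh (median 44.5) and a log2 fold change of 0.10 (SE 0.0505, edgeR adjusted p = 1). The other values with the smallest p were those of Dars (-0.08), Pars2 (0.10), Hars2 (0.05) and Wars2 (0.09). Dars lay at -0.05 without Young PF4 replicate 8, and Wars2 at 0.06 without Young Veh replicate 4. The interval lay within 1.2-fold for 38 of 40 members, all but Lars2 and Wars2, against 60.6% of all genes tested.

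An interaction term tested whether the PF4 effect differed between the ages. It called 0 members and 0% of all genes tested with edgeR, and 0 members with DESeq2. At an unadjusted p below 0.05 there were 3 members by edgeR and 2 by DESeq2, against 3.98% of all genes tested. These were Hars2 (-0.15, SE 0.0655), Aimp1 (0.20, SE 0.0997) and Wars2 (-0.26, SE 0.13), each with an edgeR adjusted p of 1, and Dars and Farsa followed. The interval lay within 1.2-fold for 25 of 40 members, among them 19 of 20 cytosolic enzymes, against 32.9% of all genes tested. Aimp1 lay at 0.08 without Old PF4 replicate 8 and Young Veh replicate 4.

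With the Gm42418 level of each library as a covariate, also added after the data had been looked at, edgeR called 6 of 40 members in Old Veh against Young Veh and 1283 genes in all (7.22%), against 0 and 492 without it. Tars, Mars, Aars and Aimp1 were lower in old mice, with log2 fold changes of -0.14, -0.11, -0.10 and -0.20 and edgeR adjusted p of 0.0344, 0.0389, 0.0341 and 0.0275. Wars2 (0.26) and Lars2 (0.18) were higher, with edgeR adjusted p of 0.0489 and 0.0193. Averaged over both treatments, Lars2 (0.16, edgeR adjusted p = 0.00219) and Nars (-0.08, edgeR adjusted p = 0.0426) were called, 2 of 40 members beside 9.39% of all genes tested. Lars2 followed Gm42418 at r = 0.964, so its adjusted value describes what was left after most of its variation had been removed. Leaving out Old PF4 replicate 8 and Young Veh replicate 4 instead gave 0 called members in each of the 6 comparisons, with 807 genes called in Old Veh against Young Veh.

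The promoters of the members were read for the sequence that ATF4 and its partners are known to bind in amino acid response genes, searched as TGATGNAA on both strands in the 250 bases before and 50 bases after each RefSeq start on GRCm38.p6. A promoter was found for 29 of the 40 members. It held the sequence in 5 of 29 members (17.2%), against 4.51% of 27025 genes with a promoter. The 5 were Aars, Gars, Iars, Tars and Yars, all cytosolic enzymes and 5 of the 7 ATF4-responsive synthetases with a promoter, while 0 of 14 mitochondrial enzymes and 0 of 3 scaffold proteins held it in this window. In Aars, Iars and Yars the match overlaps an annotated exon and is not printed. The stretches before the start of Gars (plus strand, chr6:55037891-55038000) and Tars (minus strand, chr15:11399666-11399753) show where it lies in the member of lowest residual SD (Gars, 0.066) and in one nearer the 0.214 of all genes tested (Tars, 0.185), with the match, read on the opposite strand, in capitals.
Gars: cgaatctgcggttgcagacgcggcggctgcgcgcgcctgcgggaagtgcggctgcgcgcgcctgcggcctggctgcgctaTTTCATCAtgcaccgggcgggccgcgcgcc
Tars: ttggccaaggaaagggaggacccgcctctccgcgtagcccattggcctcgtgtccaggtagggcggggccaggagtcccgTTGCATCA
The match begins 30 bases before the start in Gars and 15 bases before it in Tars. The highest library exceeded the lowest by 1.25 times for Gars and by 1.89 times for Tars. A match is a description of the letters and not of binding.

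The 12 ATF4-responsive synthetases had a median log2 fold change of -0.081 in Old Veh against Young Veh (11 of 12 below 0, 0 called), -0.018 in Old PF4 against Young PF4 (9 of 12 below 0, 0 called), 0.058 in Old PF4 against Old Veh and 0.001 in Young PF4 against Young Veh. Of 20 other integrated stress response genes, 18 were tested and had a median of -0.084 in Old Veh against Young Veh, with 16 of 18 below 0 and 1 called, beside 9731 of all 17778 genes below 0 and 2.77% called. That gene was Cth, which makes cysteine from cystathionine (-0.63, SE 0.168, edgeR adjusted p = 0.0274). Psat1, an enzyme of serine synthesis, lay at 0.09 there, against the direction of most others. In Old PF4 against Young PF4 the 18 genes had a median of -0.086, with 15 below 0 and 0 called. Of all 17778 genes, 8593 lay below 0 in that comparison. Averaged over both treatments, Psat1 rose (0.12, edgeR adjusted p = 0.00815), while Cth (-0.49, edgeR adjusted p = 0.00886) and Slc7a5, a transporter of large neutral amino acids (-0.20, edgeR adjusted p = 0.0325), fell, 3 of 18 called beside 4.71% of all genes tested. Atf4 itself had an estimate of -0.09 (SE 0.040, edgeR adjusted p = 0.215) in that average. In Old PF4 against Old Veh 0 of 18 were called, and Cth lay at 0.38 (SE 0.183, edgeR adjusted p = 0.798).

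Of the 10 kinases, phosphatase subunits and related genes that act on eIF2, the initiation factor at the centre of this response, 0 were called in any of the 6 comparisons by edgeR. Eif2ak1, at -0.07 (unadjusted p = 0.0617), had the smallest p of them in Old Veh against Young Veh. Among 13 genes that deliver charged transfer RNA to the cytosolic ribosome or proofread it, Eef1d, a subunit of the exchange factor of eEF1A, was lower in Old Veh than in Young Veh (-0.14, SE 0.041, edgeR adjusted p = 0.0441) and in old mice over both treatments (-0.10, edgeR adjusted p = 0.0447), and lay at 0.10 in Old PF4 against Old Veh (edgeR adjusted p = 0.734). Of 10 genes of mitochondrial delivery and amidation, 0 were called in any comparison. Tufm, the mitochondrial elongation factor, lay at -0.19 (SE 0.092, edgeR adjusted p = 0.307) in Old Veh against Young Veh.

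Markers of other cell types moved with age beside these values. Over both treatments the microglial genes C1qa, Cx3cr1 and P2ry12 (3 of 5 microglia markers), the astrocyte gene Gfap (1 of 5 astrocyte markers) and the oligodendrocyte gene Mbp (1 of 5) were higher in old mice, with log2 fold changes of 0.35, 0.29, 0.17, 0.38 and 0.21. The astrocyte list moved both ways. Aldh1l1 was lower in Old Veh than in Young Veh (-0.19, edgeR adjusted p = 0.0465) and lay at -0.11 over both treatments (edgeR adjusted p = 0.112). Of the 8 neuron markers, 5 endothelial markers and 10 choroid plexus markers 0 were called, and the choroid plexus markers had a median of -0.984. The summed microglia markers ran from 236 to 298 CPM in Young Veh and from 245 to 330 CPM in Old Veh. With the choroid plexus marker level as a covariate, 0 members and 658 genes were called by edgeR over both treatments, against 0 and 838 without it. The part of the other cell types in the levels of the synthetases was not tested.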

How the data were processed

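Hippocampal RNA-seq libraries of 47 mice were placed in 4 groups from their labels. The values deposited are unnormalized whole-number counts per gene. Per the labels' processing notes, the tools were Trim Galore 0.3.7, STAR 2.5.3a and DESeq2 with GRCm38, and the annotation and counting tool are not given in the sources used here. All 4 groups were fitted together with the quasi-likelihood test of edgeR 4.0.16 (R 4.3.3), TMM normalization and filterByExpr, and p-values were Benjamini-Hochberg adjusted over the 17778 genes tested. The study's methods use DESeq2, run here (1.42.0) as an alternative. Each SE was derived from the fold change and its F statistic, and gene p-values are bounded by the Poisson limit of edgeR, so an interval and its p can differ. Log2 CPM used a prior count of 2, and list levels are means of log2 CPM shifted to CPM per kilobase. Correlations used two-sided permutation tests with 100000 resamples, adjusted over all genes for those with Gm42418. Transcript lengths came from GENCODE M21, shared stretches (at least 50 bases, 95% identity) from BLAST 2.17.0 and promoters from RefSeq, matched by symbol or Ensembl identifier. The fit was tested on simulated counts.

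The genes named are, per comparison, members called and the 5 with the smallest p, the highest and lowest level in each list, both genes of pairs past the threshold, and called genes of other lists. The 2 genes of smallest p in each other list are given for some comparisons only. Genes of the complex, Lars2 neighbours and Gm42418 were named after their values were seen. The members and lists were chosen with earlier results of these data known. Alternatives were another tool, size factors, count filters, groups fitted alone, a replicate block, covariates, and libraries left out. The 1.2-fold bound was chosen after the values were seen. The values of 1 member are not reported here, and it was kept in all fits and counts.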

Additional observations from a re-analysis of the deposited data

Results flagged for a closer look

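In Old PF4, the only group of at most 10 libraries, 40 genes and 4 list levels were examined for a library far from the rest of its group by Dixon's test at the 95% level, which marks about 1 in 20 such groups by chance. In each case found, the library was Old PF4 replicate 8, which had the lowest Gm42418 level of all 47 libraries (391 CPM). It was the highest of its group for Aimp1 (48.4 CPM, next 37.1), Aimp2 (31.9, next 23), Dars (136, next 117), Eprs (168, next 129) and Kars (154, next 124). It was also the highest for Nars (312 CPM, next 220), Nars2 (34.6, next 28), Rars (65.4, next 51.8), Rars2 (48.8, next 35.6) and Tars (64.4, next 47.2), and the lowest for Vars (36.8, next 48.9). Its cytosolic list level was 4.884 (next 4.751) and its scaffold list level 4.227 (next 3.854), in log2 CPM per kilobase. Of the 11 genes, 7 are cytosolic enzymes with Dars, Eprs, Kars and Rars in the complex, 2 are mitochondrial and 2 are scaffold proteins. The same test was not run on the other genes of the table. The count therefore cannot be set beside a share of all genes, nor read as particular to the synthetases.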

How the results depend on the processing

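No member was called under DESeq2, DESeq2 size factors, either other count filter, covariates for total count, choroid plexus markers or age in months, or without the 8 libraries of lowest total, in any of the 6 comparisons (0 called), nor with only the groups compared fitted in the 4 comparisons of 2 groups, nor in any fit with 1 library left out (lowest and highest count 0 and 0). Replicate numbers repeat between groups with no stated shared litter or day. The correlation of same-numbered deviations ran from -0.425 to 0.554, with medians from -0.082 to 0.112. The best match had the same number for 2 of 12 libraries between the young groups and for 2 of 10 between the old groups. This cannot tell whether some libraries share a litter or day, and the main fit took them as unpaired. With a replicate block 0 members were called in each comparison, and the genes called went from 59 to 90 in Old PF4 against Young PF4 and from 6 to 10 in Old PF4 against Old Veh. The exceptions were the length index covariate (1 member, Iars, over both treatments) and the Gm42418 covariate (6 members in Old Veh against Young Veh and 2 over both treatments). The count of all genes called in Old Veh against Young Veh ran from 356 to 593 with 1 library left out and was 176 without the 8 libraries of lowest total, where 5 members had an unadjusted p below 0.05, 852 with the length index, 807 without the 2 libraries of lowest Gm42418 and 1283 with the Gm42418 covariate. In Old PF4 against Young PF4, 21 genes were called with those groups alone, 92 with the length index, 141 with Gm42418, 89 without the 2 libraries of lowest Gm42418, 90 by DESeq2 and 36 to 91 with 1 library left out, against 59. In Old PF4 against Old Veh it was 0 to 20 with 1 library left out, 0 with those groups alone, with the length index or without the libraries of lowest total, 14 with age in months, 10 with choroid plexus markers, 24 by DESeq2 and 131 with Gm42418, against 6. Over both treatments it was 437 without the libraries of lowest total, 1356 with the length index and 1669 with Gm42418, against 838. The pair correlations past the threshold numbered 5, and 6 with DESeq2 size factors. After removal of groups, length index and log2 total there were 4, and without the 8 libraries of lowest total 5. They fell to 3 without the 2 libraries of lowest Gm42418 and to 0 after removal of Gm42418. Lars and Lars2 then had r = 0.134 (adjusted permutation p = 0.731), with most variation of Lars2 removed. The cytosolic minus mitochondrial level in Young Veh, Young PF4, Old Veh and Old PF4 was 1.473, 1.437, 1.420 and 1.415 without Gars and Kars, 1.907, 1.860, 1.852 and 1.808 as a median over members, and 2.152, 2.133, 2.127 and 2.140 without Lars2. With the union of exons as the length it was 1.522, 1.488, 1.475 and 1.470. The cause of these shifts was not tested. The covariate for total count also changed how many members had an unadjusted p below 0.05 by edgeR. It went from 8 to 5 in Old Veh against Young Veh, from 5 to 3 in Old PF4 against Old Veh and from 3 to 0 in the interaction. In Young PF4 against Young Veh it went from 0 to 1, and the other comparisons kept 2 and 4. Depth limits Wars2 most, with 12 reads in its lowest library.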
